A study of Schizosaccharomyces pombe with 72 samples.

Results

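The genes described here are 9 fission yeast genes whose transcription is controlled by MBF, the MluI cell cycle box binding factor: cdc18, cdt1, cdt2, cdc22, suc22, cig2, mik1, yox1 and nrm1. They were taken by their systematic names (SPBC14C8.07c, SPBC428.18, SPAC17H9.19c, SPAC1F7.05, SPBC25D12.04, SPAPB2B4.03, SPBC660.14, SPBC21B10.13c and SPBC16A3.07c) and not by a threshold on measured values, though with earlier results of these data known. They are 9 of 6997 sense entries, 5112 of them protein-coding. Each also has an entry for its reverse strand, so that 9 antisense entries were followed as well. Polyadenylated RNA of Schizosaccharomyces pombe in mid-exponential growth was read strand by strand in 72 libraries, 3 for each of 24 groups, and each mutant was set against the WT of its own experiment and batch.

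Experiment A batch 1 held hrp1Δ, hrp3Δ, fft2Δ, fft3Δ, swr1Δ, irc20Δ, mit1Δ, rrp1Δ, rrp2Δ and WT, and experiment A batch 2 held fft1Δ, snf22Δ and WT. Each of these mutants lacks a Snf2-family ATPase, the motor of a nucleosome remodeler, with the gene replaced by kanMX or, for fft1 and snf22, by hygMX. Experiment B held the CHD family mutants hrp1Δhrp3Δ, hrp3Δ and hrp1Δ with WT. Experiment C held strains labelled hrp1-CT(hrp3), with the carboxy terminus of Hrp3 on Hrp1 and hrp3 deleted, and hrp3-CT(hrp1), with that of Hrp1 on Hrp3 and hrp1 deleted, and WT. Experiment D held hrp1Δhrp3Δprf1Δ, prf1Δ, hrp1Δhrp3Δ and WT, where prf1 encodes an elongation factor. All strains, the WT included, were h+ and carried ade6-M216, ura4-D18 and leu1-32, and each genotype was 1 strain. The libraries of a group are described as biological replicates, and the p-values measure the spread between them.

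MBF is a complex of Cdc10, Res1 and Res2 that binds promoters holding the MluI cell cycle box and raises transcription as cells pass from mitosis through G1 into S phase, a stretch that in fission yeast falls around septation. Its targets license and fire replication origins, make deoxyribonucleotides and restrain mitosis until replication is done, and the targets Nrm1 and Yox1 bind MBF in turn and shut it off outside that window. In bulk RNA from an unsynchronised culture, fewer cells in that stretch of the cycle and less RNA in each such cell cannot be told apart.

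The box was looked for in the 300 bases around each annotated gene start (250 before, 50 after), on both strands, in the RefSeq sequence of assembly ASM294v3. The core ACGCG was found near 8 of the 9 genes and more than once near each of the 8, against 11.4% of 5112 protein-coding genes with at least 1 match and 4.05% with more than 1. suc22 held none in this window. The full palindrome ACGCGT, which holds the core on both strands so that the counts overlap, was found near cdt1, cdt2, cdc22 and yox1, against 3.25% of all promoters. The palindromes are shown with their flanks, since they are the sequence feature that set these 4 genes apart from most others. Capitals mark the palindrome, each stretch is 26 bases read along the gene's strand, and the name is followed by the number of bases from the palindrome to the gene start.

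cdt1, 77 bases before the start: tagctacgcgACGCGTcaacaaacgc
cdt2, 122 bases before the start: actttgaaatACGCGTtttgttactt
cdt2, 63 bases before the start: tggatcacggACGCGTcgcgttcacg
cdt2, 50 bases before the start: cgtcgcgttcACGCGTcacgaaaatc
cdc22, 62 bases before the start: tattagcgtgACGCGTctgaacgcgt
cdc22, 52 bases before the start: acgcgtctgaACGCGTttttcattta
yox1, 57 bases before the start: atatagcgcgACGCGTcgttaaacgt

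A match is a description of letters and no evidence of binding. The pair of palindromes in cdc22, and in cdt2 the pair nearest the start, lie so close together that their flanks overlap, and further copies of the core stand in the lower-case flanks. The core was matched 7 times near cdt2, 6 times near cdc18 and near cdc22, 5 times near cig2, 4 times near cdt1, and 3 times each near mik1, yox1 and nrm1. Each palindrome counts once on each strand here, so these are not numbers of separate sites.

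The libraries differed widely in depth, between 470206 and 38590464 estimated counts in experiment A batch 1, 5054945 and 9874249 in batch 2, 7222368 and 10013173 in experiment B, 5203039 and 14320852 in experiment C, and 3657 and 6278193 in experiment D. In experiment D, 3 libraries stood apart, with a profile correlation with the median library under 0.8: hrp1Δhrp3Δprf1Δ replicate 2 (3657 counts), hrp1Δhrp3Δ replicate 1 and WT replicate 3. The deleted gene was checked in each mutant. In experiment B, hrp1 averaged 9.15 CPM in hrp1Δhrp3Δ and 9.99 in hrp1Δ against 58.8 in WT, and hrp3 0.0 CPM in hrp1Δhrp3Δ and 24.0 in hrp3Δ against 64.2 in WT, where CPM is the estimated count relative to the TMM-scaled size of the library. Some labels were at odds with the counts: in experiment A batch 1 hrp3 averaged 25.3 CPM in the libraries labelled hrp3Δ against 23.4 in WT, fft2 57.4 in those labelled fft2Δ against 26.4, and rrp1 45.4 in those labelled rrp1Δ against 35.3, while hrp1 averaged 14.1 in those labelled hrp1Δ against 21.3 without passing the test. swr1 was called lower in swr1Δ (−0.97) but still averaged 9.78 CPM there against 18.2 in WT. In experiment C, the libraries labelled hrp1-CT(hrp3) had 39.7 CPM of hrp1 and 75.2 of hrp3, and those labelled hrp3-CT(hrp1) had 92.1 of hrp1 and 44.7 of hrp3, against 95.3 and 65.5 in WT. How many reads of a carried-over terminus fall on its donor entry was not tested. Whether the labels of experiment C are exchanged was not tested, so a direction in either of these groups belongs to its label only. In experiment D, prf1 averaged 28.0 CPM in the libraries labelled hrp1Δhrp3Δprf1Δ and 49.0 in those labelled prf1Δ against 121 in WT. Neither difference passed the test, whose power in experiment D was low, as given below. These groups are therefore called by their labels.

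In the 14 WT libraries with a usable profile, the genes for the subunits of ribonucleotide reductase, the enzyme that makes deoxyribonucleotides, had the most transcripts per length. suc22, the small subunit, had 95.2, 156 and 200 TPM as the lowest, median and highest value, and cdc22, the large subunit, 46.7, 59.6 and 250 TPM. nrm1 followed with a median of 39.0 TPM, yox1 with 19.6, cdt2 with 11.1, cdc18 with 9.44, cdt1 with 6.84 and mik1 with 3.64. Neighbours in this order overlapped in range: suc22 was above cdc22 in 11 of the 14 libraries, cdc22 above nrm1 in 11, nrm1 above yox1 in 13, yox1 above cdt2 in 12, cdt2 above cdc18 in 10, cdc18 above cdt1 in 13 and cdt1 above mik1 in 14. The levels also differed between the WT of different experiments, with a median TPM for cdt2 of 27.1 in experiment A batch 1, 10.7 in batch 2, 5.34 in B, 22.6 in C and 9.75 in D, which is why no mutant was set against the WT of another experiment.

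cig2 has no usable level of its own. The entry was at 0 in 47 of 69 libraries, because reads from this strand were assigned to the overlapping entry SPNCRNA.846.rc, the reverse strand of a non-coding gene that covers the whole cig2 coding region. That entry took a median of 100% of the reads of the pair. For cdc18 the overlapping SPNCRNA.1495.rc took a median of 9.47%. The values of cig2 and cdc18 below are the sums with these entries, a choice made after the data had been seen, and the counts of called genes are for the deposited entries with the summed count beside them.

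**Figure D1:**
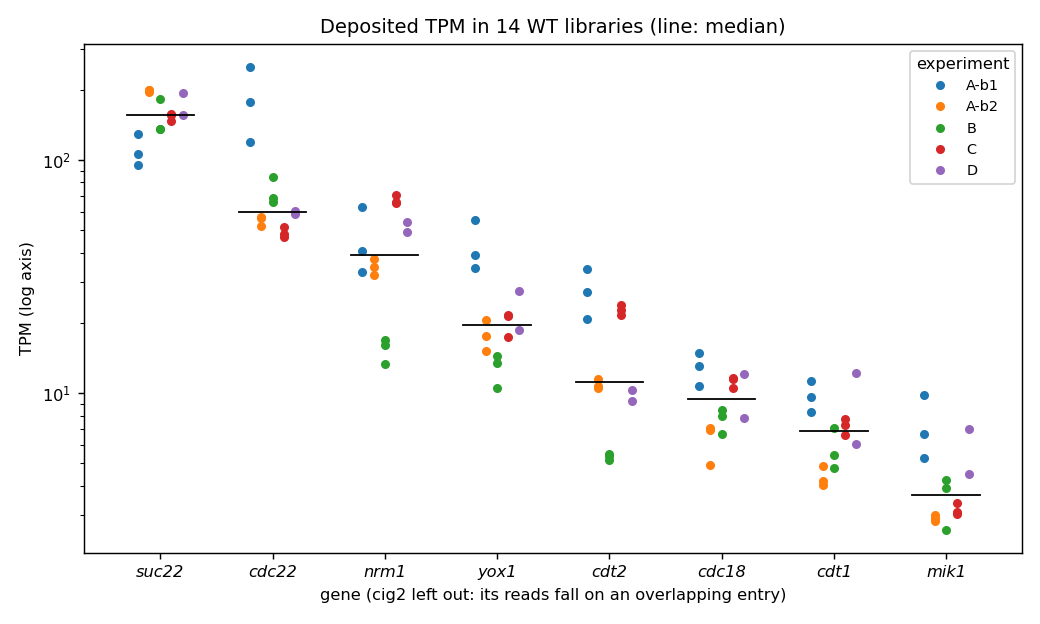
Deposited TPM (vertical, log axis) of 8 genes in 14 WT libraries, each point a library coloured by experiment and each line the median. The medians run between 156 for suc22 and 3.64 for mik1, and the cdt2 points of experiment B (median 5.34) lie below those of experiment A batch 1 (median 27.1).

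Experiment B asked what loss of the CHD remodelers Hrp1 and Hrp3, which space nucleosomes over gene bodies, does to RNA levels. In hrp1Δhrp3Δ, 8 of the 9 genes were lower than in WT and none was higher, where 42.6% of all protein-coding genes tested were lower. The median log2 fold change of the 9 was −0.91 and that of all protein-coding genes −0.21. In hrp3Δ, 6 were lower (30.9% of all genes), with a median of −0.61 against −0.15. In hrp1Δ, 2 were lower, or 3 with the overlapping entries summed (7.23%), with a median of −0.48 against −0.07. suc22 was called in none of the 3 mutants. On the entries, every mutant library was below every WT library for 7 genes in hrp1Δhrp3Δ (46.9% of all genes), 7 in hrp3Δ (40.7%) and 5 in hrp1Δ (20.1%).

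Among the licensing factors, cdc18 had 19.6, 17.3 and 16.3 CPM in hrp1Δhrp3Δ, 18.6, 17.1 and 18.1 in hrp3Δ and 31.0, 28.1 and 32.4 in hrp1Δ, against 39.7, 38.9 and 39.4 in WT. Cdc18 (Cdc6 in other eukaryotes) loads the replicative helicase onto origins. Every mutant library was below every WT library, and the 3 hrp1Δ libraries lay between WT and the 2 groups that lack hrp3. The log2 fold change was −1.15 ± 0.1 (SE, edgeR quasi-likelihood test, adjusted p = 3.63e-07) in hrp1Δhrp3Δ, −1.13 ± 0.1 (adjusted p = 8.03e-07) in hrp3Δ and −0.37 (adjusted p = 0.0237) in hrp1Δ. The last was lost without WT replicate 1 (−0.35) or hrp1Δ replicate 2 (−0.31), and the cdc18 entry alone gave −0.35 with an adjusted p of 0.0525.

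cdt1, whose product works with Cdc18 in helicase loading, had 10.1, 5.67 and 9.46 CPM in hrp1Δhrp3Δ, 11.7, 12.3 and 10.7 in hrp3Δ and 13.8, 11.8 and 14.9 in hrp1Δ, against 23.5, 16.1 and 17.8 in WT. The groups did not overlap with WT in any mutant. The log2 fold change was −1.17 ± 0.2 (adjusted p = 0.000212) in hrp1Δhrp3Δ and −0.72 ± 0.2 (adjusted p = 0.00953) in hrp3Δ, and −0.5 with an adjusted p of 0.113 in hrp1Δ. The hrp3Δ call was lost without WT replicate 1, the highest library (−0.54).

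cdt2 encodes the substrate receptor of the Cul4 ubiquitin ligase, which destroys Cdt1 and the reductase inhibitor Spd1 in S phase. It had 15.3, 13.0 and 15.1 CPM in hrp1Δhrp3Δ, 13.6, 13.2 and 12 in hrp3Δ and 22.3, 15.8 and 14.7 in hrp1Δ, against 19.0, 18.1 and 22.3 in WT. The first 2 of these groups lay below WT and hrp1Δ overlapped it. The fold changes of −0.45 ± 0.16 (adjusted p = 0.026) in hrp1Δhrp3Δ and −0.61 ± 0.16 (adjusted p = 0.00725) in hrp3Δ were among the smaller ones, and the hrp1Δhrp3Δ call was lost without WT replicate 3 (−0.37) or hrp1Δhrp3Δ replicate 2 (−0.38).

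Of the ribonucleotide reductase subunits, cdc22 was lower and suc22 had no call. cdc22 had 239, 193 and 217 CPM in hrp1Δhrp3Δ, 297, 307 and 273 in hrp3Δ and 362, 288 and 320 in hrp1Δ, against 438, 488 and 479 in WT. No mutant library reached the lowest WT library. The log2 fold change was −1.11 ± 0.1 (adjusted p = 3.64e-07) in hrp1Δhrp3Δ, −0.68 ± 0.1 (adjusted p = 7.13e-05) in hrp3Δ and −0.54 (adjusted p = 0.00252) in hrp1Δ, and each call held with any library left out.

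suc22 had 457, 466 and 511 CPM in hrp1Δhrp3Δ, 470, 495 and 524 in hrp3Δ and 423, 421 and 360 in hrp1Δ, against 390, 467 and 441 in WT. All 3 hrp3Δ libraries were above WT and the other groups overlapped it. The log2 fold change was 0.14 in hrp1Δhrp3Δ (approximate 95% interval −0.03 to 0.32), 0.2 in hrp3Δ (adjusted p = 0.0953) and −0.11 in hrp1Δ, none past the test. The suc22 gene is known to give a constitutive transcript and a longer regulated one, which this entry does not separate.

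cig2, the S-phase B-type cyclin that also feeds back on MBF, had 12.4, 12.7 and 9.03 summed CPM in hrp1Δhrp3Δ, 17.5, 18.3 and 14.8 in hrp3Δ and 24.5, 24.2 and 24.3 in hrp1Δ, against 34.1, 44.1 and 25.9 in WT. All mutant libraries lay below WT, and the order of the 3 mutants was without overlap. Its fold changes in hrp1Δhrp3Δ, −1.61 ± 0.18 (adjusted p = 3.7e-06), and in hrp3Δ, −1.04 ± 0.17 (adjusted p = 0.000246), passed the test, and that in hrp1Δ, −0.52 with an adjusted p of 0.061, did not.

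mik1, a kinase that phosphorylates Cdc2 and restrains mitosis, had 9.15, 6.18 and 9.78 CPM in hrp1Δhrp3Δ, 11.6, 9.21 and 11.9 in hrp3Δ and 14.0, 8.36 and 11.9 in hrp1Δ, against 18.8, 15.6 and 13.1 in WT. Only the hrp1Δhrp3Δ change of −0.91 ± 0.22 (adjusted p = 0.00276) passed the test among the 3, with −0.54 (adjusted p = 0.0601) in hrp3Δ and −0.48 (adjusted p = 0.17) in hrp1Δ.

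Of the genes for repressors of MBF, yox1 was lower in all 3 mutants and nrm1 in hrp1Δhrp3Δ. yox1 had 11.2, 11.9 and 11.8 CPM in hrp1Δhrp3Δ, 11.7, 10.4 and 9.42 in hrp3Δ and 12.2, 10.3 and 11.9 in hrp1Δ, against 17.2, 16.1 and 14.9 in WT. The 3 mutants were alike in level and below WT, with log2 fold changes of −0.47 ± 0.14 (adjusted p = 0.00979) in hrp1Δhrp3Δ, −0.61 ± 0.14 (adjusted p = 0.00283) in hrp3Δ and −0.49 (adjusted p = 0.0331) in hrp1Δ, the last lost without any of 4 libraries (−0.42 without WT replicate 1 or hrp1Δ replicate 2, −0.49 without WT replicate 2, −0.53 without hrp1Δ replicate 3). nrm1 had 32.2, 29.5 and 25.5 CPM in hrp1Δhrp3Δ, 31.1, 32.3 and 33.2 in hrp3Δ and 31.2, 27.6 and 34.4 in hrp1Δ, against 41.3, 35.0 and 36.8 in WT. Its fold change of −0.37 ± 0.11 (adjusted p = 0.011) in hrp1Δhrp3Δ passed the test, those of −0.23 (adjusted p = 0.121) in hrp3Δ and −0.28 (adjusted p = 0.12) in hrp1Δ did not, and the call was lost without hrp1Δhrp3Δ replicate 3 (−0.29).

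**Figure D2:**
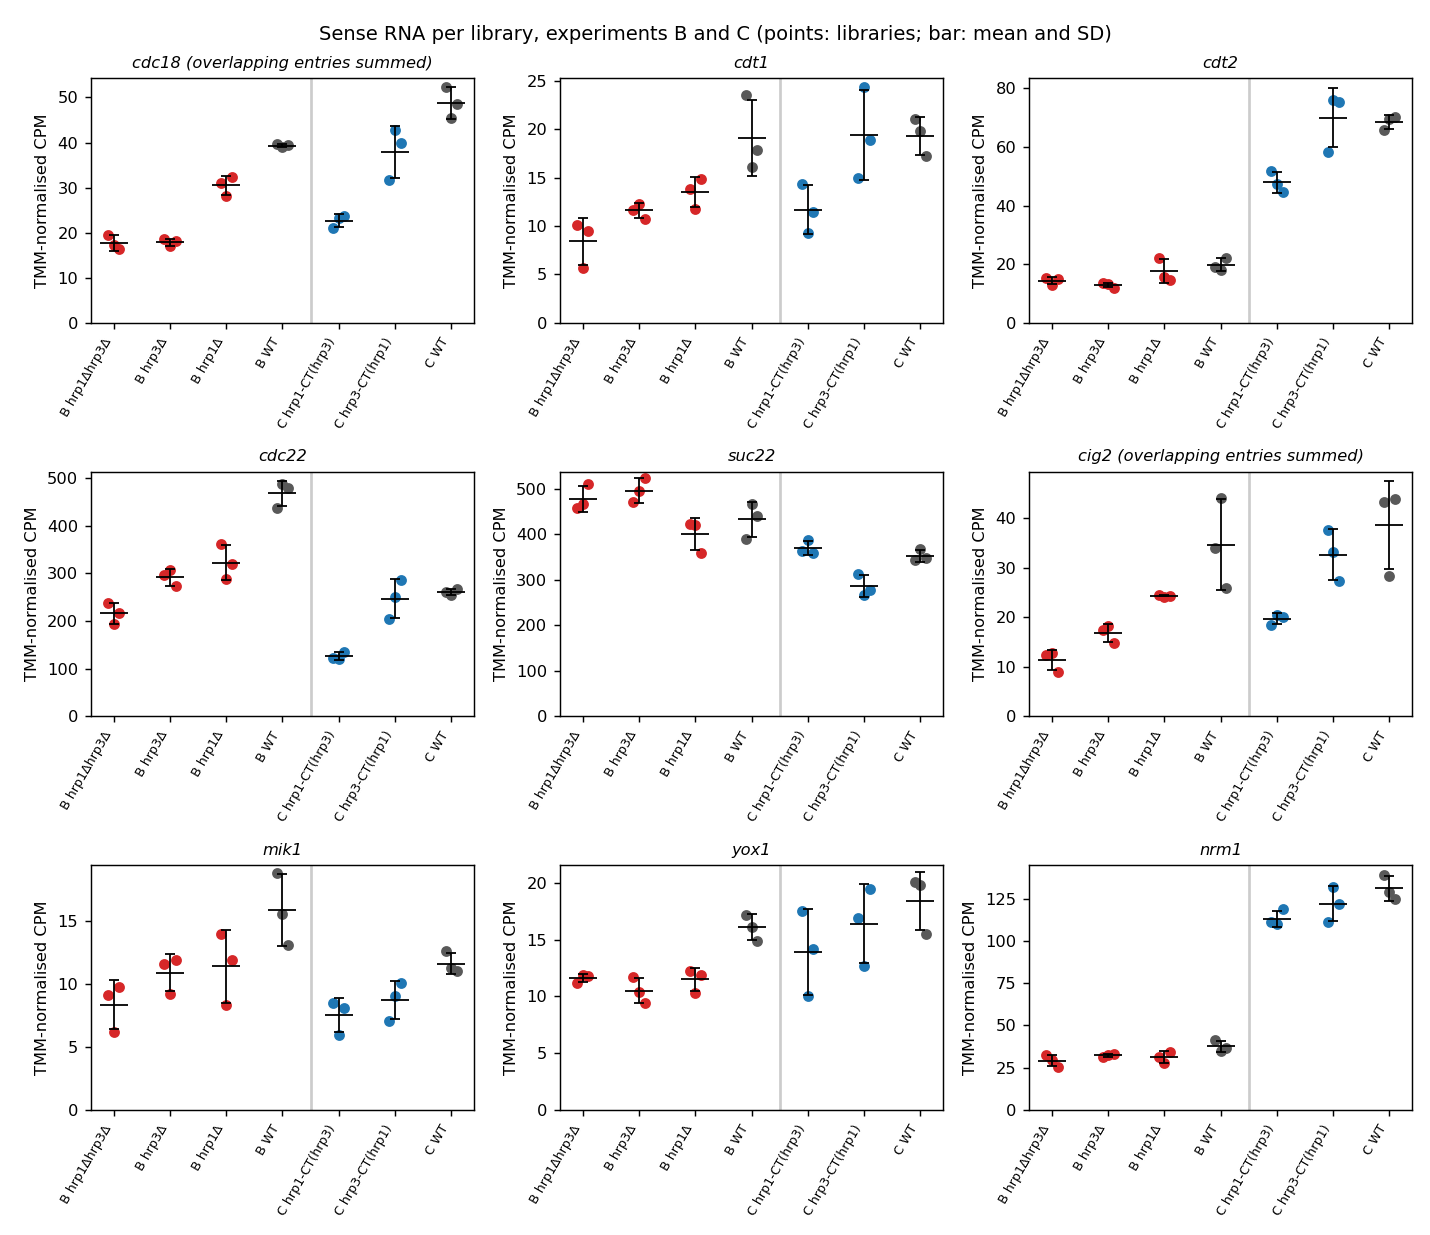
TMM-normalised CPM (vertical) of the 9 genes in experiments B and C, with a point for each library and a bar for the mean and SD of 3. In experiment B all cdc18 and cdc22 points of the mutants lie below WT, while the suc22 points of hrp1Δhrp3Δ (457, 466 and 511) overlap WT (390, 467 and 441); in experiment C the points labelled hrp1-CT(hrp3) lie below WT for cdc18, cdt1, cdt2, cdc22, cig2, mik1 and nrm1.

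The mutants of experiment B were also set directly against each other. Between hrp3Δ and hrp1Δ, cdc18 differed by −0.75 (adjusted p = 0.000182 on the entry), cdt2 by −0.44 and suc22 by 0.31, which made 3 of 9 genes where 32.3% of all genes differed; the summed cig2 differed by −0.53. Between hrp1Δhrp3Δ and hrp3Δ, 1 gene differed, cdc22 by −0.43 (adjusted p = 0.0116), where 7.41% of all genes did. Between hrp1Δhrp3Δ and hrp1Δ, cdc18 (−0.8), cdt1 (−0.67), cdc22 (−0.58) and suc22 (0.25) differed on their entries, 4 of 9 where 42.1% of all genes did, with the summed cig2 at −1.1. Of these direct differences, those of cdt2, suc22 and cig2 between hrp3Δ and hrp1Δ, of cdc22 between hrp1Δhrp3Δ and hrp3Δ, and of cdt1 and suc22 between hrp1Δhrp3Δ and hrp1Δ lost their call when single libraries were left out (any of 2 to 5 of the 6 libraries, with the values on the same side of 0).

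Experiment C asked whether the carboxy terminus sets the functions of Hrp1 and Hrp3 apart. In the libraries labelled hrp1-CT(hrp3), 6 of the 8 genes tested, or 7 of 9 with the overlapping entries summed, were lower than in WT, where 49.4% of all genes were lower, with a median of −0.56 against −0.24. cdc18 had 21.1, 23.3 and 23.8 CPM in those libraries against 52.4, 45.4 and 48.6 in WT, and cdc22 122, 120 and 136 against 261, 254 and 268. Every one of these values was below every WT value, with log2 fold changes of −1.1 (adjusted p = 9.37e-06) and −1.05 (adjusted p = 3.41e-06). cdt1 had 14.3, 9.3 and 11.4 CPM against 21.0, 19.8 and 17.2 in WT (−0.72, adjusted p = 0.00733), and cdt2 51.7, 47.4 and 44.6 against 65.9, 69.4 and 70.2 (−0.52, adjusted p = 0.00108). The summed cig2 had 18.5, 20.5 and 20.1 CPM against 43.3, 28.3 and 44.0 in WT (−0.97, adjusted p = 0.000349). None of these groups overlapped, and neither did those of 58.0% of all genes, lower in every one of these libraries.

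Of the remaining genes, mik1 and nrm1 were lower in hrp1-CT(hrp3)-labelled libraries. mik1 had 8.53, 5.96 and 8.1 CPM against 12.6, 11.3 and 11.0 in WT (−0.61, adjusted p = 0.0177) and nrm1 111, 110 and 119 against 139, 129 and 125 (−0.21, adjusted p = 0.0325), and each lost its call without WT replicate 1 (−0.56 and −0.18). yox1 had 17.5, 10.0 and 14.2 CPM against 20.1, 19.8 and 15.5 in WT, overlapping groups with an adjusted p of 0.128. suc22 was again the exception, with 363, 387 and 360 CPM against 344, 367 and 347 in WT (0.07, adjusted p = 0.405).

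In the libraries labelled hrp3-CT(hrp1), suc22 was the 1 gene called, and it was lower than in WT, where 4.49% of all genes were, with 313, 267 and 277 CPM against 344, 367 and 347 in WT (−0.3, adjusted p = 0.0214), a call lost without any of the WT libraries (−0.32 each). cdc18 had 31.6, 42.8 and 39.8 CPM in those libraries and cdc22 205, 250 and 286, and neither passed the test. Set against each other, hrp1-CT(hrp3) and hrp3-CT(hrp1) differed in 5 of the 8 genes tested (60.7% of all genes): cdc18 by −0.77, cdt1 by −0.73, cdt2 by −0.56, cdc22 by −0.97 and suc22 by 0.38, with the summed cig2 at −0.73.

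The scaling bears on these counts. With TMM factors from protein-coding sense entries alone, the median log2 fold change of all protein-coding genes moved up by 0.22 in hrp1Δhrp3Δ, 0.16 in hrp3Δ and 0.07 in hrp1Δ of experiment B and by 0.25 in the libraries labelled hrp1-CT(hrp3), to within 0.01 of no change. The genes called higher and lower then numbered 970 and 1000 in hrp1Δhrp3Δ (392 and 2102 with factors from all entries), 715 and 783 in hrp3Δ (320 and 1528), 243 and 213 in hrp1Δ (154 and 357), and 1003 and 1044 in hrp1-CT(hrp3)-labelled libraries (358 and 2440). Relative to that median, hrp1Δhrp3Δ kept the lower calls of cdc18 (−0.93), cdt1 (−0.94), cdc22 (−0.89), cig2 (−1.39) and mik1 (−0.69) and lost those of cdt2 (−0.23), yox1 (−0.24) and nrm1 (−0.15), and suc22 became higher (0.37, adjusted p = 0.00274). In hrp3Δ the 6 lower calls were kept and suc22 became higher (0.35, adjusted p = 0.00521), and in hrp1Δ only cdc22 kept its call (−0.47). The libraries labelled hrp1-CT(hrp3) kept cdc18 (−0.85), cdc22 (−0.8), cdt2 (−0.27) and cig2 (−0.72), lost cdt1 (−0.47) and mik1 (−0.36), had nrm1 on the other side of 0 (0.04) and had suc22 higher (0.32, adjusted p = 0.00368).

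In experiment A batch 1, the libraries labelled hrp3Δ had 5 of the 9 genes lower and 1 higher than WT, or 6 lower with the overlapping entries summed, where 21.0% of all genes were lower and 14.0% higher. With TMM factors from protein-coding sense entries the lower calls on the entries were 3, with cdc18 (−0.36) and nrm1 (−0.31) lost, and the genes called higher and lower numbered 840 and 850 (681 and 1023 with factors from all entries). DESeq2 size factors also gave 3 lower, and DESeq2 itself called 4 of the 9 genes. cdc22 had 681, 633 and 685 CPM against 800, 1100 and 1290 in WT (−0.68, adjusted p = 0.0022), cdt2 56.2, 54.0 and 46.7 against 78.8, 95.6 and 100 (−0.75, adjusted p = 0.000151), and the summed cig2 50.3, 55.9 and 44.8 against 78.6, 96.5 and 87.8 (−0.75, adjusted p = 0.000206). These genes did not overlap between the groups, as was so for 24.2% of all genes in this direction. cdc18 had 40.1, 39.1 and 41.1 summed CPM against 54.2, 57.2 and 54.6 in WT (−0.47, adjusted p = 0.0148), a call lost without hrp3Δ replicate 1 (−0.47) or 2 (−0.45), and on the entry (−0.43) also without WT replicate 2 (−0.4). yox1 had 22.5, 19.3 and 18.7 CPM against 65.6, 42.0 and 31.9 (−1.22, adjusted p = 0.000309), with a wide spread in WT. nrm1 had 71.6, 71.0 and 85.9 CPM against 81.7, 92.1 and 120 (−0.38, adjusted p = 0.0447), overlapping groups whose call was lost without any of 4 libraries (−0.42 without WT replicate 2, −0.22 without WT replicate 3, −0.34 without hrp3Δ replicate 1 or 2).

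suc22 was higher in the libraries labelled hrp3Δ in experiment A batch 1, with 417, 462 and 407 CPM against 277, 284 and 291 in WT (0.6, adjusted p = 8.82e-05), and held its call with any library left out. cdt1 (0.06) and mik1 (−0.15) did not pass the test there, whereas cdt1 had passed it in hrp3Δ of experiment B. The hrp3Δ effect on cdt1 in experiment B less that in experiment A batch 1 was −0.56, with an adjusted p of 0.177.

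**Figure D3:**
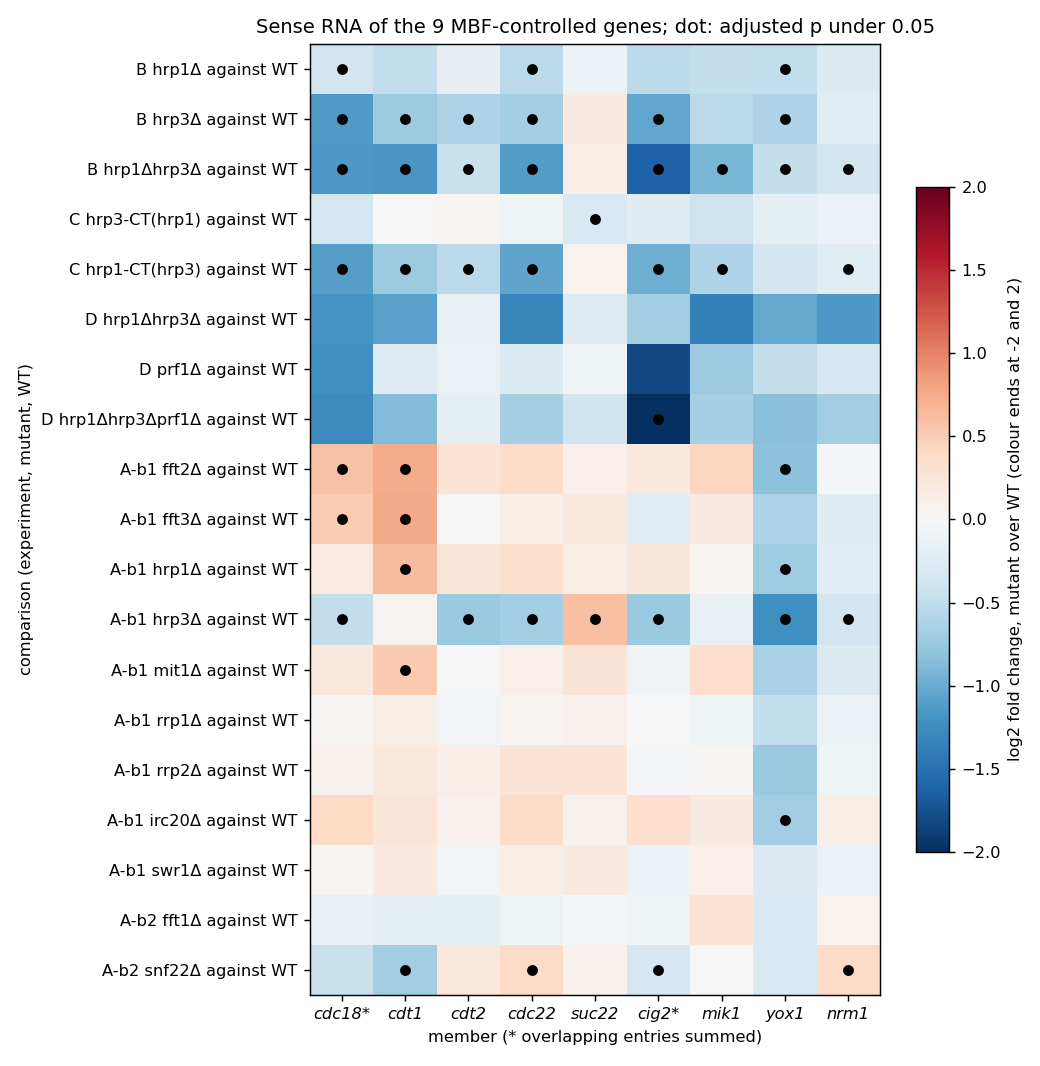
Log2 fold change of sense RNA, mutant over WT, for the 9 genes (columns) in the 19 comparisons (rows), with a dot where the adjusted p is under 0.05 and cdc18 and cig2 summed with their overlapping entries. The blue of hrp3Δ, hrp1Δhrp3Δ and hrp1-CT(hrp3) runs over most columns and spares suc22 (0.2, 0.14 and 0.07), and the red of fft2Δ and fft3Δ is strongest at cdt1 (0.74 and 0.75).

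Other remodeler mutants of experiment A moved few of these genes, and cdt1 most often. cdt1 had 44.5, 52.4 and 54.6 CPM in the libraries labelled fft2Δ, 43.6, 53.3 and 51.9 in fft3Δ and 45.8, 45.8 and 48.2 in those labelled hrp1Δ, against 32.6, 25.9 and 29.3 in WT. All of these libraries were above WT, as in 20.4%, 17.9% and 20.3% of all genes, with log2 fold changes of 0.74, 0.75 and 0.63. In mit1Δ, cdt1 had 43.4, 34.9 and 49.6 CPM (0.52), a call lost without WT replicate 1 (0.63) or 2 (0.45) or mit1Δ replicate 1 (0.54) or 3 (0.39), while the other 3 calls held with any library left out. cdc18 was higher in the libraries labelled fft2Δ, with 78.5, 83.0 and 89.0 summed CPM, and in fft3Δ, with 77.7, 77.6 and 80.4, against 54.2, 57.2 and 54.6 in WT. On the cdc18 entry the log2 fold change was 0.55 in the libraries labelled fft2Δ, a call lost without WT replicate 1 (0.5), and 0.52 in fft3Δ, lost without WT replicate 1 (0.46) or fft3Δ replicate 3 (0.43). yox1 was lower in the libraries labelled fft2Δ (−0.82), in those labelled hrp1Δ (−0.71) and in irc20Δ (−0.7), all set against the same WT libraries with 65.6, 42.0 and 31.9 CPM. Each of these yox1 calls was lost without WT replicate 1, its highest library (−0.41, −0.3 and −0.29 in fft2Δ, hrp1Δ and irc20Δ), and without 1, 3 and 4 others.

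Counted over the 9 genes, fft2Δ-labelled libraries had 2 higher (19.0% of all genes) and 1 lower (15.3%). There were 2 higher in fft3Δ (13.3% of all genes), 1 higher (14.2%) and 1 lower (12.1%) in hrp1Δ-labelled libraries, 1 higher in mit1Δ (6.55%) and 1 lower in irc20Δ (11.2%). These comparisons share 3 WT libraries, and with 9 genes such counts lie near the shares over all genes. No gene passed edgeR's test in the libraries labelled rrp1Δ (1.13% of all genes), in rrp2Δ (7.33%), in swr1Δ (4.62%) or in fft1Δ (0.0206%), where 2, 2, 0 and 0 of the 9 had an unadjusted p under 0.05 and DESeq2 called 0, 2, 0 and 0. The libraries labelled fft2Δ and fft3Δ differed in none of the 9 (3.68% of all genes), with 1 at an unadjusted p under 0.05 and 0 by DESeq2.

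In snf22Δ, which lacks the ATPase of the SWI/SNF remodeler, 2 genes were higher (21.8% of all genes) and 1 lower (20.5%). cdc22 had 335, 343 and 354 CPM against 269, 279 and 242 in WT (0.38) and nrm1 74.5, 82.8 and 89.8 against 67.3, 58.6 and 61.5 (0.39). cdt1 had 5.48, 5.74 and 8.47 CPM against 9.87, 12.2 and 10.0 in WT (−0.7, lost without WT replicate 2 at −0.6 or snf22Δ replicate 1 at −0.58 or 2 at −0.61), and the summed cig2 26.9, 28.7 and 27.9 against 37.4, 35.6 and 32.5 (−0.34, lost without WT replicate 1 or 2 or snf22Δ replicate 1 or 3, at −0.29 to −0.35). All 4 were without overlap, where 28.9% of all genes were higher and 27.0% lower without overlap.

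Experiment D added prf1Δ, and its libraries varied widely. Counts were simulated with the same spread for every gene, near the common value fitted in experiment D (biological coefficient of variation 0.65). There the test of prf1Δ against WT recovered 0% of log2 changes of 1 and 0% of those of 2. The fit of the measured counts did call some genes, with shares given below, so these figures are a rough guide. The simulated test of hrp3Δ in experiment B recovered 97% and 100%. A missing call in the fit of all libraries of experiment D therefore does not show that a gene was unchanged. With all libraries no sense entry among the 8 tested passed edgeR's test in the libraries labelled hrp1Δhrp3Δprf1Δ (4.09% of all genes differed), in those labelled prf1Δ (4.82%) or in hrp1Δhrp3Δ (0.712%), where 0, 1 and 1 had an unadjusted p under 0.05 and DESeq2 called 0 in each, and the summed cig2 passed in the libraries labelled hrp1Δhrp3Δprf1Δ (−2.31, adjusted p = 0.0334). cdc18 had 20.0, 0.0 and 23.6 summed CPM in the libraries labelled hrp1Δhrp3Δprf1Δ, 19.3, 20.3 and 22.6 in those labelled prf1Δ and 11.9, 29.8 and 21.2 in hrp1Δhrp3Δ, against 63.0, 49.5 and 30.7 in WT. The value of 0.0 belongs to the library of 3657 counts, where a count of 0 allows up to 3 counts, for counting error only. No mutant library was above the lowest WT library, which is the one that stood apart.

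The summed cig2 had 13.8, 0.0 and 17.5 CPM in the libraries labelled hrp1Δhrp3Δprf1Δ, 18.7, 23.5 and 20.2 in those labelled prf1Δ and 74.6, 23.6 and 37.5 in hrp1Δhrp3Δ, against 65.3, 72.6 and 80.6 in WT. The high hrp1Δhrp3Δ value came from replicate 1, which stood apart. Without the 3 libraries that stood apart, cdc18 was lower by −1.16 in the libraries labelled hrp1Δhrp3Δprf1Δ (adjusted p = 0.00988, 27.7% of all genes lower), −1.24 in those labelled prf1Δ (adjusted p = 0.00229, 34.9% lower) and −1.0 in hrp1Δhrp3Δ (adjusted p = 0.0259, 7.6% lower), and cig2 by −1.92 in the libraries labelled hrp1Δhrp3Δprf1Δ, −1.53 in those labelled prf1Δ and −1.03 in hrp1Δhrp3Δ, all past the test. On the entries, hrp1Δhrp3Δ then had 3 genes lower, cdc18, cdc22 (−1.14) and nrm1 (−0.88), and suc22 stood at 0.14. These fits rest on 2 libraries in each group but prf1Δ, and their spread is shared over the groups.

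Antisense RNA over these genes was sparse, and only part of it could be tested: 7 antisense entries passed the filter on low counts in experiments B and C, 5 in experiment A and 6 in experiment D, and that of suc22 passed in none. In hrp1Δhrp3Δ and in hrp3Δ of experiment B, 3 of the 7 antisense entries were higher, those of cdt1, cdt2 and cdc22, where 65.4% in hrp1Δhrp3Δ and 48.6% in hrp3Δ of all antisense entries of protein-coding genes tested were higher. The median over the 7 was 0.78 in hrp1Δhrp3Δ and 0.80 in hrp3Δ, against 1.73 and 1.12 over all.

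cdt1 antisense had 13.2, 9.46 and 12.9 CPM in hrp1Δhrp3Δ, 9.32, 11.5 and 10.5 in hrp3Δ and 3.17, 4.49 and 2.46 in hrp1Δ, against 5.28, 5.41 and 3.55 in WT (1.31, 1.13 and no call). cdt2 antisense had 7.84, 5.55 and 8.08 CPM in hrp1Δhrp3Δ and 6.1, 7.54 and 5.49 in hrp3Δ, against 3.02, 3.53 and 2.27 in WT (1.28 and 1.11). cdc22 antisense had 9.37, 9.71 and 12 CPM in hrp1Δhrp3Δ and 8.25, 11.5 and 10.2 in hrp3Δ, against 3.62, 5.29 and 5.12 in WT (1.14 and 1.08). In these 3 genes both groups lacking hrp3 lay above WT on the antisense strand and below it on the sense strand. How many of all antisense entries were without overlap was not computed. In hrp1Δ, only yox1 antisense was called among the entries (12.4% of all were higher), with 3.42, 3.03 and 3.69 CPM against 0.754, 1.06 and 1.28 in WT (1.69, adjusted p = 0.0137), a call lost without WT replicate 1 (1.54).

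cig2 antisense, summed with the overlapping non-coding entry, was higher in both single mutants. It had 21.8, 21.6 and 22.6 CPM in hrp1Δhrp3Δ, 33.9, 30.6 and 35.6 in hrp3Δ and 33.9, 29.3 and 25.4 in hrp1Δ, against 15.8, 20.0 and 18.2 in WT. Both single mutants were above WT (0.88 and 0.71, past the test), and hrp1Δhrp3Δ, which was above WT in all libraries, was not past it (0.28, adjusted p = 0.0709) but was with TMM factors from protein-coding sense entries (0.51, adjusted p = 0.0035). It was lower in hrp1Δhrp3Δ than in hrp3Δ (−0.6, adjusted p = 0.00571). cdc18 antisense on the summed entries had no call against WT in experiment B, and was higher in hrp3Δ, with 5.14, 5.02 and 5.89 CPM, than in hrp1Δ, with 3.17, 1.67 and 1.77 CPM (1.27, adjusted p = 0.00521), a call that held with any library left out.

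In experiment C, 5 of the 7 antisense entries were higher in hrp1-CT(hrp3)-labelled libraries (74.8% of all were higher, with a median of 0.85 against 2.04). cdt2 antisense had 18.1, 16.7 and 14.2 CPM against 6.83, 6.99 and 5.02 in WT (1.37), the summed cig2 antisense 15.8, 12.8 and 13.8 against 3.63, 5.33 and 4.01 (1.72), mik1 antisense 12.6, 12.1 and 12.9 against 7.56, 7.7 and 5.57 (0.85) and cdc22 antisense 15.8, 14.2 and 12.2 against 8.51, 7.58 and 8.14 (0.79). All were without overlap, for which no share over all antisense entries was computed. cdc18 antisense was called on its entry (1.44) and not with the overlapping entry summed (0.04). The mik1 antisense call was lost without WT replicate 3 (0.7) or hrp1-CT(hrp3) replicate 1 (0.8) or 3 (0.82). hrp3-CT(hrp1)-labelled libraries differed in 1 antisense entry, cdt1 antisense, which was lower (1.48% of all were), with 4.3, 2.07 and 3.5 CPM against 9.09, 9.95 and 7.69 in WT (−1.46, adjusted p = 0.0042).

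In experiment A batch 1, 4 of the 5 antisense entries were higher in the libraries labelled hrp3Δ (55.3% of all were higher, with a median of 1.10 against 1.52). cdc22 antisense had 7.86, 11.4 and 11.2 CPM in those libraries against 1.12, 0.894 and 1.3 in WT (3.1). cdt1 antisense, with 16.6, 16.4 and 13.1 CPM against 11.7, 7.15 and 5.85 in WT (0.82), was higher as well, as were cdt2 antisense (1.1) and the summed cig2 antisense (2.45). In other mutants of this batch antisense entries were lower where called: cdt1 antisense in the libraries labelled hrp1Δ (−1.53), in those labelled fft2Δ (−0.81) and in fft3Δ (−1.17), and mik1 antisense in the libraries labelled hrp1Δ (−1.6), in those labelled fft2Δ (−1.13) and in mit1Δ (−1.28), where 4.11% of all antisense entries were lower in hrp1Δ, 3.89% in fft2Δ, 2.87% in fft3Δ and 0.958% in mit1Δ. cdc18 antisense on the summed entries was lower in hrp1Δ-labelled libraries, with 1.79, 2.14 and 0.804 CPM against 11.2, 8.94 and 5.85 in WT (−2.34, adjusted p = 0.000129, held with any library left out), and in those labelled fft2Δ, with 5.15, 4.88 and 4.04 CPM (−0.91, adjusted p = 0.0412, lost without any of 5 of the 6 libraries). The cdc18 antisense entry itself held 0.0, 0.0 and 1.25 estimated counts in WT and 2.3, 3.32 and 0.0 in the libraries labelled hrp1Δ. The summed WT level thus lay almost wholly on the non-coding entry SPNCRNA.1495. cdt1 had more sense and less antisense RNA in the libraries labelled hrp1Δ and fft2Δ and in fft3Δ. All of these antisense calls on the entries were lost when single libraries were left out, cdt1 antisense without WT replicate 1 in each (−1.04 in hrp1Δ, −0.32 in fft2Δ and −0.69 in fft3Δ), mik1 antisense in hrp1Δ without hrp1Δ replicate 1 (−1.37), and mik1 antisense in fft2Δ and mit1Δ without any of 4 and 5 libraries. In the libraries labelled hrp3Δ the call of cdc22 antisense held throughout and the other 3 on the entries were each lost without any of 4 libraries, among them hrp3Δ replicates 1 and 2.

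In experiment D, with all libraries, none of the 6 antisense entries tested passed edgeR's test in the libraries labelled hrp1Δhrp3Δprf1Δ (34.8% of all antisense entries differed), in those labelled prf1Δ (44.1%) or in hrp1Δhrp3Δ (36.1%), where 0, 1 and 1 had an unadjusted p under 0.05 and DESeq2 called 0 in each. The summed cig2 antisense was higher in prf1Δ-labelled libraries, with 27.3, 22.7 and 37.8 CPM against 5.73, 6.25 and 11.5 in WT (1.99, adjusted p = 0.0352). Without the libraries that stood apart, prf1Δ-labelled libraries had cdt1 (1.29), cdc22 (1.3), mik1 (1.88) and yox1 (2.65) antisense higher. In that fit cdt1 antisense was higher in hrp1Δhrp3Δ (1.36), and mik1 (1.75) and yox1 (3.17) antisense in hrp1Δhrp3Δprf1Δ-labelled libraries. The summed cig2 antisense was then higher in hrp1Δhrp3Δ (1.69, edgeR adjusted p = 0.0187) and in prf1Δ-labelled libraries (2.49, adjusted p = 0.000836). It was higher as well in hrp1Δhrp3Δprf1Δ-labelled libraries (1.8, adjusted p = 0.00958). The share over all antisense entries is not given for that fit.

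**Figure D4:**
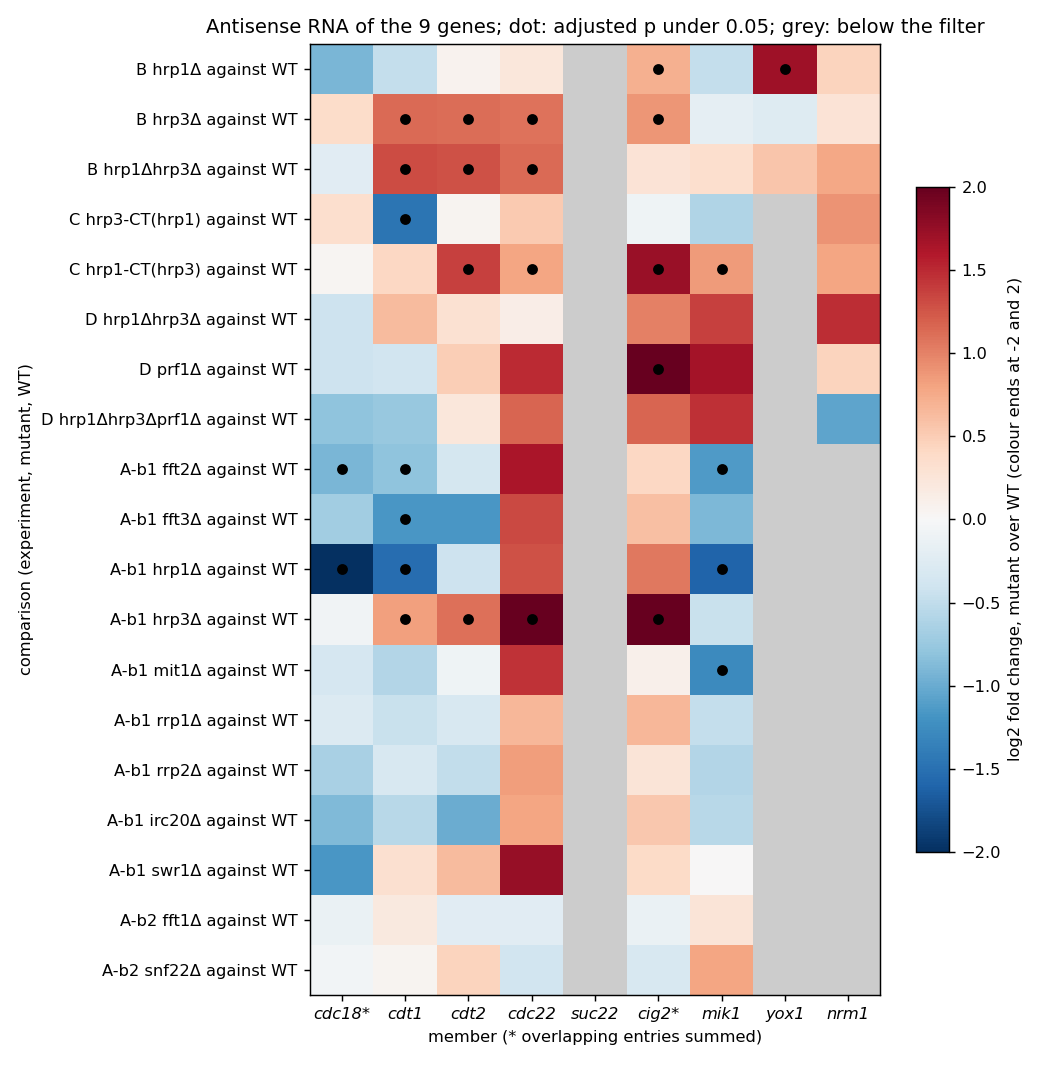
Log2 fold change of antisense RNA, mutant over WT, for the 9 genes (columns) in the 19 comparisons (rows), with a dot where the adjusted p is under 0.05, grey where the entry was below the filter, and cdc18 and cig2 summed with their overlapping entries. cdt1, cdt2 and cdc22 antisense are red and dotted in hrp3Δ and hrp1Δhrp3Δ of experiment B (1.08 to 1.31), and cdt1 and mik1 antisense are blue in the libraries labelled hrp1Δ of experiment A batch 1 (−1.53 and −1.6).

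The other genes of the pathway were read from lists chosen by function. Of 7 other reported MBF targets, 4 were lower and none higher in hrp1Δhrp3Δ (42.6% of all genes were lower) and in hrp3Δ (30.9%) of experiment B, 2 were lower in hrp1Δ (7.23%), and 6 were lower in hrp1-CT(hrp3)-labelled libraries (49.4%). tos4, a forkhead-associated protein, was lower by −1.49 in hrp1Δhrp3Δ, −0.84 in hrp3Δ and −0.52 in hrp1Δ, and by −1.23 in the libraries labelled hrp1-CT(hrp3). dut1, the dUTPase that keeps uracil out of DNA, was lower by −1.16 in hrp1Δhrp3Δ, −1.03 in hrp3Δ and −0.54 in hrp1Δ of experiment B and by −1.03 in the libraries labelled hrp1-CT(hrp3). ctp1, a DNA end resection factor, was lower by −0.4 in hrp1Δhrp3Δ and −0.47 in hrp3Δ, and the cohesin subunit rad21 by −0.37 in hrp3Δ. msh6, a mismatch repair gene, was not called in experiment B. The entry of mrc1 was at or near 0 in several libraries and no fold is given for it. The 4 calls in hrp1Δhrp3Δ are those of tos4, dut1, ctp1 and a gene whose fold there is not given here. Without that gene the count lies near the share over all genes.

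Of 9 genes for MBF subunits and regulators, 2 were lower and 1 higher in hrp1Δhrp3Δ and in hrp3Δ of experiment B, where 42.6% of all genes were lower and 7.94% higher in hrp1Δhrp3Δ and 30.9% lower and 6.48% higher in hrp3Δ. In hrp1-CT(hrp3)-labelled libraries 6 were lower (49.4%) and 1 higher (7.24%). cdc10, the shared subunit of MBF, did not pass the test in experiment B, at 0.19 in hrp1Δhrp3Δ and in hrp3Δ and 0.06 in hrp1Δ. It was lower in hrp1-CT(hrp3)-labelled libraries (−0.29) and higher in the libraries labelled hrp3Δ of experiment A batch 1 (0.69). res1, a DNA-binding subunit, was lower by −0.41 in hrp1Δhrp3Δ, −0.27 in hrp3Δ and −0.75 in the libraries labelled hrp1-CT(hrp3). rep2, the activator subunit of MBF, was lower by −0.88 in hrp1Δhrp3Δ, −0.31 in hrp3Δ, −0.97 in hrp1Δ and −0.84 in the libraries labelled hrp1-CT(hrp3). The checkpoint kinase gene chk1 was higher in hrp1Δhrp3Δ (0.66).

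Other genes of replication and its control were called in both directions. Of 12 origin licensing genes, 5 were lower and 4 higher in hrp1Δhrp3Δ (42.6% and 7.94% of all genes), among them mcm4 (−0.49) and mcm2 (0.52), subunits of the same helicase. Among 3 genes for Cul4-Cdt2 and reductase control, spd1, the inhibitor of ribonucleotide reductase, was lower by −0.31 in hrp1Δhrp3Δ and −0.52 in hrp3Δ of experiment B, and by −0.66 in the libraries labelled hrp3Δ of experiment A batch 1.

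Genes that mark other stretches of the cell cycle were read in the same way. All 9 S-phase histone genes were lower in hrp1Δhrp3Δ (42.6% of all genes) and in hrp3Δ (30.9%) of experiment B, with summed levels of 4210 to 4650 CPM in hrp1Δhrp3Δ, 4080 to 4310 in hrp3Δ and 6100 to 6500 in hrp1Δ, against 6730 to 7670 in WT. Of 6 mitotic genes, 3 were lower in hrp1Δhrp3Δ and 2 in hrp3Δ, with summed levels of 198 to 227 CPM in hrp1Δhrp3Δ and 207 to 218 CPM in hrp3Δ, against 254 to 269 in WT, counts near the shares over all genes (42.6% and 30.9%), with a median of −0.31 in each against −0.21 and −0.15 over all. Relative to the median of all protein-coding genes, the called genes of every list named here kept their side except mcm7 in hrp1Δhrp3Δ, and msh6 and orc4 in the libraries labelled hrp1-CT(hrp3). Only the side was read, and the calls of listed genes were not retested with factors from protein-coding sense entries. Some lay close to that median, as spd1 did in hrp1Δhrp3Δ (−0.1 relative to it). No gene of these lists was at 0 in any of these groups, and their part in the result was not tested.

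The lists did not move alike everywhere. In the libraries labelled hrp1-CT(hrp3), 4 of 9 histone genes and 5 of 6 mitotic genes were lower (49.4% of all genes), with summed mitotic levels of 190 to 220 CPM against 281 to 304 in WT. In those labelled hrp3-CT(hrp1), 6 histone genes were higher (5.04% of all genes), with summed levels of 4750 to 5240 CPM against 3670 to 3920 in WT. Of the 9 MBF-controlled genes only suc22 had a call there, and it was lower. Of the 7 other reported MBF targets, 1 was higher. In the libraries labelled hrp3Δ of experiment A batch 1, 6 histone genes were lower (21.0% of all genes), with summed levels of 2750 to 2830 CPM against 4340 to 5750 in WT, and the mitotic genes split, with 2 higher and 1 lower. In snf22Δ all 9 histone genes were higher (21.8% of all genes).

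**Figure D5:**
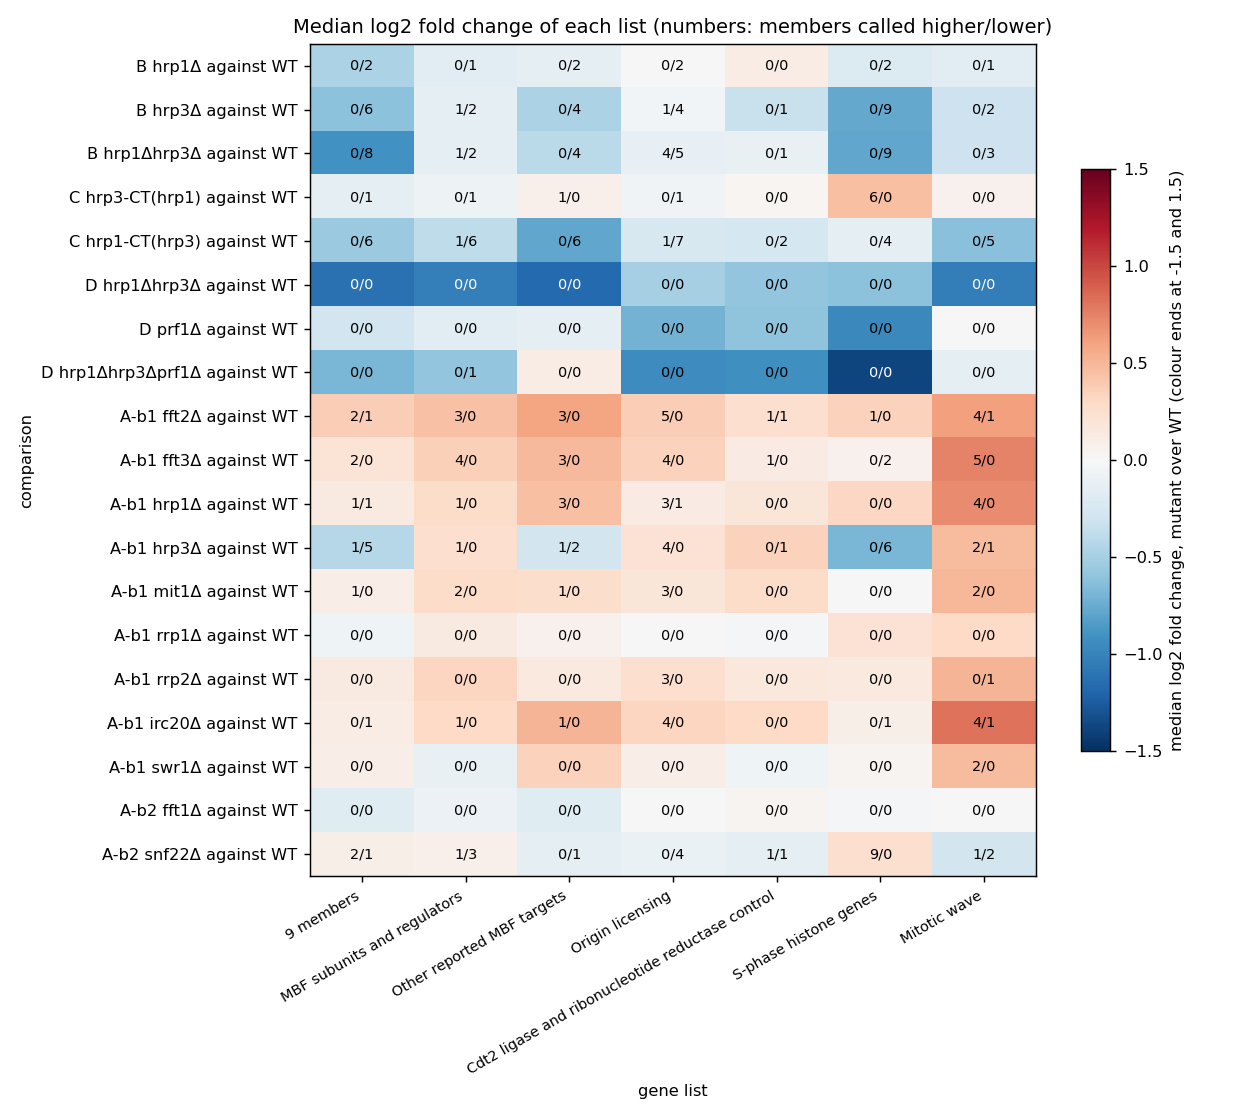
Median log2 fold change, mutant over WT, of each gene list (columns) in the 19 comparisons (rows), with the number of its genes called higher and lower in each cell. In hrp1Δhrp3Δ of experiment B the 9 MBF-controlled genes have 0 higher and 8 lower with a median of −0.91, the histone genes 0 and 9 with −0.78, and origin licensing 4 and 5.

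Over the 69 libraries with a usable profile, log2(CPM + 1), centred on its mean in each experiment or batch, was compared between the genes as a description, since libraries of 1 group and of 1 run share their source. cdc18 followed the mean of the other 8 most closely (Pearson r = 0.84), then cdc22 and mik1 (0.78 each), cdt1 and cig2 (0.72 each), cdt2 (0.71), nrm1 (0.65) and yox1 (0.5). suc22 went the other way (−0.44). The closest pairs were cdc18 with cig2 and cdt2 with cdc22 (0.81 each) and cdt1 with mik1 (0.76). Among 4780 other protein-coding genes, those whose pattern was most like the mean of the 9 were tos4 and lon1 (0.85 each), pfa3 (0.83), abc4 and gmh2 (0.81 each).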

How the data were processed

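The deposited tables give, per library, estimated counts and TPM that the authors obtained with kallisto (version not given in the sources used here) from strand-specific paired-end reads against ASM294v2 transcripts, each with a reverse-strand copy, so 13994 entries. Reads shared by overlapping entries were split between them by that estimate. Here estimated counts were rounded, filtered with filterByExpr (minimum count 10, minimum total 15), scaled by TMM and tested with edgeR 4.0.16 (limma 3.58.1, R 4.3.3), quasi-likelihood, 1 fit per experiment or batch, with Benjamini-Hochberg adjustment over all kept entries and a threshold of 0.05. The fold changes are log2, with intervals of the estimate plus and minus about 2 SE at 95%. TPM was used for WT levels only. Groups came from the sample labels. The 9 genes are the named genes, with the deleted genes, listed genes called in at least 2 comparisons or in experiment B, and the 5 genes most like the 9. Some planned list genes are not reported here. The members, lists and tests were chosen with earlier results of these data known. Same-numbered replicates did not deviate together (no comparison had every pair over 0.1) and were not paired. Alternatives were DESeq2 1.42.0, other scalings and filters, a replicate block, the 2 groups alone and libraries left out. Tests were checked on data simulated with the same spread for every gene of an experiment. Recovery of log2 changes of 1 was 97% in experiment B, 72% in experiment A batch 1 and 0% in experiment D. Promoters came from RefSeq ASM294v3 by gene name; no coordinates were carried between builds. Tables used pandas 2.3.3 and figures matplotlib 3.10.9 in Python 3.11.15. Depth ran between 3657 and 38590464 counts, and intervals and floors cover counting error only.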

Additional observations from a re-analysis of the deposited data

Results flagged for a closer look

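The effect of the same deletion was tested for a difference between experiments B and A batch 1, in 1 fit with the WT of each. The effect of hrp1Δ on cdt1 in experiment B less that in the libraries labelled hrp1Δ of experiment A batch 1 was −1.19 on the log2 scale (edgeR adjusted p = 0.0122), with cdt1 called higher in that batch (0.63) and not called in experiment B (−0.5). The same difference for cdc22 was −0.9 (adjusted p = 0.0361), with a fall of −0.54 in experiment B. For cdc18 it was −0.6 with the overlapping entries summed (adjusted p = 0.0366) and −0.58 on the entry (adjusted p = 0.0645). For hrp3Δ, the difference on cdc22 antisense was −1.76 (adjusted p = 0.029), where both effects were positive, 1.08 in experiment B and 3.1 in the libraries labelled hrp3Δ of experiment A batch 1. The cdc22 difference was lost without any of 8 of the 12 libraries, that on cdc22 antisense without any of 5, and that on cdt1 without hrp1Δ replicate 1 of experiment A batch 1 (−1.1). In these libraries of batch 1, hrp1 and hrp3 were not called lower than in WT, and the part of that in the differences was not tested. For hrp1Δhrp3Δ, experiments D and B differed in none of the genes, with the libraries that stood apart included. The wide spread of experiment D limits what that test can detect.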

How the results depend on the processing

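Counts below are of the 9 genes called, out of those tested, as the alternative value against the reported one. With the 2 groups of a comparison fitted alone, sense counts fell to 1 in fft2Δ (3 reported), 0 in fft3Δ (2), 1 in hrp1Δ (2), 0 in mit1Δ (1) and 0 in irc20Δ (1) of experiment A batch 1 and 1 in hrp1Δ of experiment B (2), and antisense counts to 0 in fft2Δ (2), 0 in fft3Δ (1), 1 in hrp3Δ (4) and 0 in mit1Δ (1). With DESeq2, antisense counts were 1 in fft2Δ and 0 in mit1Δ, and sense counts 2 in rrp2Δ (0 reported) and 1 in hrp1Δ of experiment B. With no filter, antisense counts were 0 in fft2Δ and 0 in mit1Δ, and sense counts 0 in mit1Δ, 0 in irc20Δ and 1 in hrp1Δ of experiment B. With a minimum of 1 CPM in 3 libraries, antisense counts were 1 in fft2Δ, 0 in mit1Δ and 1 in hrp1Δhrp3Δprf1Δ (0), and the sense count 0 in irc20Δ. Without the batch 1 libraries under 1000000 counts, antisense counts were 1 in fft2Δ, 2 in fft3Δ and 0 in mit1Δ, and the sense count 0 in irc20Δ. DESeq2 size factors gave antisense counts of 0 in mit1Δ and 1 in prf1Δ (0), and TMM from protein-coding genes a sense count of 1 in hrp1Δ of experiment B, an antisense count of 1 in prf1Δ and nrm1 at 0.04 in hrp1-CT(hrp3) (−0.21 reported). The hrp3Δ effect in experiment B less that in experiment A batch 1 gave 1 sense gene (0) under DESeq2, DESeq2 size factors and TMM from protein-coding genes. Summing the overlapping entries gave antisense counts of 2 in hrp1Δ (1) and 1 in hrp1Δhrp3Δ against hrp3Δ (0) of experiment B and 1 in prf1Δ (0), and a sense count of 1 in hrp1Δhrp3Δprf1Δ (0). Without the 3 libraries of experiment D that stood apart, sense counts were 3 in hrp1Δhrp3Δ, 1 in prf1Δ and 1 in hrp1Δhrp3Δprf1Δ, and antisense counts 1, 4 and 2, against 0 in each.

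The replicate block, with the number in the labels as a term, gave an antisense count of 0 in mit1Δ (1) and a sense count of 0 in irc20Δ (1), and the numbers did not pair the libraries, since the correlation of same-numbered deviations ran between −0.69 and 0.83. With each library left out in turn, sense counts ran over 1 to 5 in fft2Δ, 1 to 3 in fft3Δ and in hrp1Δ, 0 to 2 in mit1Δ and irc20Δ and 0 to 1 in rrp2Δ of batch 1, 1 to 2 in hrp1Δ, 1 to 3 in hrp3Δ against hrp1Δ, 0 to 1 in hrp1Δhrp3Δ against hrp3Δ and 2 to 5 against hrp1Δ of experiment B, and 0 to 1 in hrp3-CT(hrp1). Antisense counts ran over 0 to 2 in fft2Δ, 0 to 1 in fft3Δ and mit1Δ, 1 to 2 in hrp1Δ and 1 to 4 in hrp3Δ of batch 1, 0 to 1 in hrp1Δ of experiment B, 1 to 2 in hrp3-CT(hrp1), 3 to 4 in hrp1-CT(hrp3) and 0 to 1 in hrp1Δhrp3Δ of experiment D. The differences between experiments B and A batch 1 ran over 0 to 3 sense genes for hrp1Δ and 0 to 1 sense and 0 to 1 antisense genes for hrp3Δ. The causes of these changes were not tested, beyond the fewer libraries of the fits that leave some out. Several antisense entries rest on few counts per library, which limits their precision.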
